A study of Mus musculus with 24 samples.

Results

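The comparison described here is between day 8 (D8) and day 4 (D4) of brown adipogenesis in cells that received the solvent control. It rests on 6 of the 24 RNA sequencing libraries of the series, chosen by their labels: 3 libraries labelled BAT preadipocyte, day 4, control, and 3 labelled BAT preadipocyte, day 8, control. The whole series crosses 2 depots (white and brown), 2 days and 2 treatments (control and EGCG, a green tea catechin that is not examined further). The cells were the stromal vascular fraction (SVF) of interscapular brown adipose tissue of 6-week-old C57BL/6 mice, grown to near confluence and then differentiated in culture, and the control cells had DMSO in the medium. The SVF is the mixed cell pellet left after collagenase digestion of fat, so it holds preadipocytes together with other stromal, vascular and immune cells. On D4 the cells had been in induction medium, with insulin, dexamethasone (a glucocorticoid) and isobutylmethylxanthine (IBMX, which keeps cAMP high), for 4 days. On D8 they had spent a further 4 days in differentiation medium, with insulin and the thyroid hormone T3. The effect of time and that of the change of medium therefore cannot be told apart. The white control cells, used where a change is compared between depots, came from inguinal fat and followed the same schedule. Whether libraries of a group stem from separate cell preparations is not stated in the labels, so the p-values measure the spread between these libraries, which may be technical.

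As background, a preadipocyte leaves the cell cycle when it is induced, switches on the transcription factors C/EBP and PPARγ, and then builds up the enzymes that store lipid. A brown adipocyte also fills with mitochondria and makes Ucp1, the uncoupling protein that lets the respiratory chain release energy as heat. Brown cells arise from a lineage that expresses Zic1, Lhx8 and Ebf2 as precursors and burn fatty acids and glucose when noradrenaline reaches their beta3 receptor.

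Values are FPKM, reads scaled for the length of the gene and the size of the library, and are given for replicates 1, 2 and 3 in that order. Gene-level totals were 39452696 to 46509456 reads for replicates 1 and 2 of the brown controls, and 16803199 and 17671381 for replicate 3. Replicate 3 stands in a table that was made separately, in which 49 genes were at least 3-fold higher and 1139 at least 3-fold lower than in replicates 1 and 2 on both days (Gapdh, chosen as an example after its values were seen, was at 33.9, 39.3 and 1254 on D4 and at 62.8, 57.8 and 2838 on D8, where the days overlap through replicate 3), so it served for the direction of change alone. Of 14095 genes tested in replicates 1 and 2 with limma on log2(FPKM + 1), 9751 (69.2%) differed between the days at an adjusted p under 0.05. There were 4050 genes higher on D8 (28.7%) and 5701 lower (40.4%). With a median-ratio scaling of the libraries the split was 5207 higher and 4214 lower, the share of higher calls moving from 41.5% to 55.3% and the median of all genes from -0.10 to 0.04 on the log2 scale. No gene was called in opposite directions by the 2 scalings, and 8264 genes were called in the same direction by both. A change of at least 2-fold was called in 1978 genes, 1057 higher and 921 lower, and of at least 8-fold in 59 higher and 13 lower. Replicate 3 moved in the same direction for 95.3% of the called genes, beside 84.6% of all genes tested. For 9033 tested genes (64.1%) the 3 libraries of the days did not overlap. Since most genes passed the test, a list of genes is described by how far and in which direction its members moved, set beside the median of -0.10 over all genes tested. Counts of called members are to be read beside the shares over all genes, 28.7% higher and 40.4% lower. A gene near 0 on D4 could pass the test filter through libraries where it was high. Where members were near 0 on D4 (thermogenic effectors, thyroid hormone targets and skeletal muscle markers), counts over tested members can therefore lean toward higher on D8. Log2 changes are given ± SE for 2 libraries a day, with the spread pooled over 16 libraries, and understate the change of genes with low values. Fold changes are ratios of the mean FPKM of replicates 1 and 2. For every called gene whose FPKM is printed, the 3 libraries of D8 lay all above or all below the 3 of D4, except where an overlap is stated. The same direction in all 3 replicates was itself a condition for naming most of these genes, so it is no support for them. Members behind a count of 5 or fewer were named after their values were seen.

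The label was checked against markers. Adipocyte markers were already high on D4. Plin1, the coat protein of the fat droplet, was at 199.9, 238 and 252 FPKM on D4 and at 338, 322 and 297 on D8. The fatty acid carrier Fabp4 was at 4219, 4918 and 5456 on D4 and at 7489, 7602 and 7034 on D8 (log2 change 0.73 ± 0.0983, adjusted p = 3.70e-05, or adjusted p = 0.88 under quantile normalisation). Lpl, lipoprotein lipase, was at 1097, 1213 and 1228 on D4 and at 1087, 1070.2 and 775 on D8 and was not called (adjusted p = 0.294). Adiponectin (Adipoq) was at 285, 333 and 377 on D4 and at 374, 402 and 399.7 on D8, with an overlap through replicate 3 of D4. Its log2 change of 0.33 passed the test (adjusted p = 0.00842) but did not without D4 replicate 1 (adjusted p = 0.0955) or without D8 replicate 2 (adjusted p = 0.0618). The brown lineage genes Zic1 and Lhx8 were present on both days and Ebf2 likewise, whereas Ucp1 and Cidea were near 0 on D4 and detected on D8. The white cells, in contrast, had Zic1 at 0.0243, 0.0665 and 0.163 on D4 and at 0.0502, 0.0444 and 0.0323 on D8. These markers fit the label of brown adipogenic cells, with Ucp1 low in absolute terms even on D8.

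Markers of other cell types were also detected. Of the 15 macrophage markers 13 were tested, with Emr1 higher on D8 and Lyz2 and C1qa lower, though C1qa was not called under median-ratio scaling. The call of Emr1 was lost without any of the 4 brown control libraries in turn (adjusted p = 0.0636 to 0.201), and that of C1qa without D8 replicate 2 (adjusted p = 0.108). The summed FPKM of the list was 205 to 231 on D4 and 150.3 to 167 on D8. Of 13 endothelial markers 12 were tested, with 8 higher and 1 (Egfl7) lower, and sums of 24.5 to 31.2 and 33.3 to 35.4. Of 8 Schwann cell and neural markers 7 were tested, with 5 higher (among them Sox10, S100b, Mbp and Ngfr) and 1 (Ncam1) lower, and sums of 49.2 to 53.3 and 76.3 to 77.8. The mesothelial and epithelial list summed to 0.59 to 1.09 on D4 and 6.00 to 6.54 on D8, with 2 of 6 tested markers higher (Msln and Krt19). The lymphoid and blood list summed to 0.82 to 1.31 on D4 and 0.41 to 0.89 on D8, with 1 of 8 markers tested and not called. Of this list, Cd3e was at 0 in all 6 libraries. All 10 skeletal muscle markers that were tested were higher on D8, the other 8 were too low to test, and the summed FPKM was 23.8 to 39.0 on D4 and 127 to 140.2 on D8. Of the factors that define the muscle lineage, Myf5 was at 0.0597, 0 and 0 on D4 and at 0.0103, 0.0122 and 0 on D8. Myod1 was at 0.121, 0.288 and 0 on D4 and at 0.731, 0.547 and 0.916 on D8. Myogenin (Myog) was at 0.571, 2.13 and 0.805 on D4 and at 4.23, 3.84 and 5.39 on D8. Pax7 was at 0 in all 6 libraries, which for replicates 1 and 2 together allows up to 0.00601 FPKM on D4 and 0.00596 on D8 by counting error alone. In bulk RNA, more cells of a type and more RNA per cell cannot be told apart. The part of these cell types in the results was not tested.

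The genes that rose farthest included enzymes, hormones and muscle-type proteins. Aspg, an asparaginase, was at 0.619, 1.03 and 0.958 FPKM on D4 and at 85.3, 87.0 and 75.4 on D8, a 105-fold rise in replicates 1 and 2 (log2 change 5.59 ± 0.219, adjusted p = 1.51e-09). Cox7a1, the muscle and brown fat form of a subunit of cytochrome c oxidase, went from 2.87, 3.54 and 3.43 to 191, 189.8 and 176 FPKM (5.51 ± 0.148, adjusted p = 1.41e-10). Leptin (Lep), the adipocyte hormone that reports fat stores, was at 0.473, 0.484 and 1.19 on D4 and at 57.1, 58.4 and 59.8 on D8 (5.31 ± 0.0657, adjusted p = 6.74e-13). The lowest D8 library of each was far above its highest D4 library. The 10 genes with the largest rises also held Sncg, Mb, Timp4, Orm1, Apoc3 and Egln3. Sncg encodes gamma-synuclein and was at 2.74, 2.97 and 3.70 on D4 and at 154, 159 and 161 on D8. Myoglobin (Mb), the oxygen-binding protein of muscle, went from 0.382, 0.663 and 0.323 to 55.1, 54.5 and 49.8, and its gene overlaps Apol6 in the annotation. Egln3, a prolyl hydroxylase that senses oxygen, went from 4.02, 3.58 and 4.63 to 83.0, 84.8 and 79.5. Timp4, an inhibitor of metalloproteinases, went from 0.456, 0.236 and 1.05 to 36.8, 39.6 and 38.4, and Apoc3, an apolipoprotein, from 0.175, 0.408 and 0.672 to 24.3, 27.9 and 26.6. Most of these genes were close to 0 on D4, so their rise is nearly the whole of their D8 level.

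Several of the largest falls were in secreted factors. Prl2c2, a proliferin, was at 46.1, 38.3 and 33.1 FPKM on D4 and at 0.43, 0.149 and 0.0666 on D8 (log2 change -5.07 ± 0.193, adjusted p = 1.26e-09). It shares reads with near-identical proliferin genes, so its level is uncertain. The chemokine Cxcl5 went from 57.1, 40.6 and 40.6 to 1.0004, 1.45 and 1.09 (-4.47 ± 0.425, adjusted p = 1.87e-06). Agtr2, the type 2 receptor of angiotensin, was at 216, 203 and 213 on D4 and at 14.5, 14.1 and 14.2 on D8, a 14.6-fold fall (-3.78 ± 0.262, adjusted p = 1.25e-07). Serum amyloid Saa3, an acute phase protein, started at 593, 513 and 492 FPKM and ended at 33.7, 36.9 and 32.2. Stromelysin 1 (Mmp3), which degrades matrix, went from 139, 116 and 138 to 8.53, 8.87 and 10.9, and Prg4, the lubricin of joint fluid, whose gene overlaps Tpr, from 119, 102 and 89.0 to 9.64, 8.33 and 8.65. Of the remaining 4 genes of the 10 with the largest falls, the chemokine Ccl11 (eotaxin) was at 22.1, 22.6 and 25.6 and then 0.974, 1.38 and 1.62, and the natriuretic peptide gene Nppc at 8.82, 9.25 and 15.5 and then 0, 0.0243 and 0.109. Hpca, which overlaps Tmem54, went from 18.9, 21.1 and 13.6 to 0.467, 0.316 and 0.307, and Pde7b, a phosphodiesterase of cAMP, from 17.1, 14.3 and 13.4 to 1.10, 0.821 and 0.862.

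**Figure D1:**
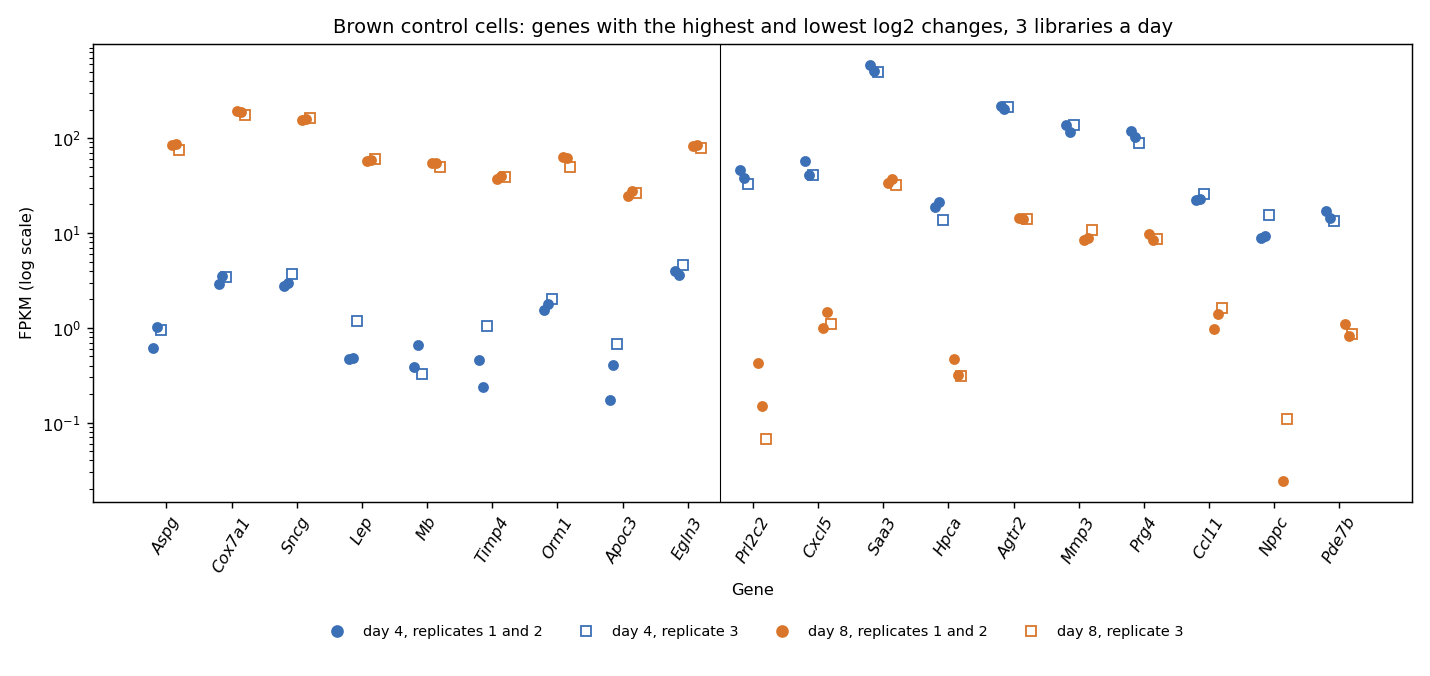
FPKM (log axis) of 9 of the 10 genes that rose farthest and of the 10 that fell farthest in brown control cells, with 1 point for each library: D4 blue, D8 orange, replicates 1 and 2 as filled circles, replicate 3 as open squares. No gene shows an overlap of the days, and Nppc was at 0 in D8 replicate 1, which a log axis cannot show.

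Most thermogenic effectors were higher on D8. Of 20 effectors tested, 14 were higher on D8 and 2 lower, with a median log2 change of 1.12, and 6 further effectors were too low to test. Ucp1 was at 0.423, 0.243 and 0.217 FPKM on D4 and at 6.97, 6.15 and 4.20 on D8, a 19.7-fold rise (log2 change 2.50 ± 0.106, adjusted p = 2.73e-09). Cidea, a fat droplet protein of brown adipocytes, went from 0.342, 0.229 and 0.358 to 11.1, 10.95 and 8.51 (3.23 ± 0.151, adjusted p = 5.34e-09). Cox8b, like Cox7a1 a tissue form of a cytochrome c oxidase subunit, went from 3.502, 4.24 and 4.11 to 84.8, 76.3 and 76.9 (4.07 ± 0.227, adjusted p = 2.08e-08). For Ucp1, Cidea and Cox8b the lowest D8 library lay above every D4 library. Adrb3, the beta3 adrenergic receptor, was at 21.4, 23.2 and 25.6 on D4 and at 94.0, 102 and 98.5 on D8 (2.09 ± 0.109, adjusted p = 1.21e-08). Pdk4, the kinase that shuts pyruvate out of the citric acid cycle, went from 12.8, 14.8 and 13.9 to 72.4, 69.7 and 57.0, a 5.15-fold rise (2.29 ± 0.21, adjusted p = 1.42e-06).

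Some hallmark genes of brown fat did not rise. Elovl3, an elongase induced by cold in brown fat, fell from 10.2, 12.9 and 12.3 FPKM to 2.27, 1.20 and 1.53 (log2 change -2.22 ± 0.204, adjusted p = 1.37e-06), and its gene overlaps Pitx3. Gyk, glycerol kinase, was at 6.63, 6.99 and 6.17 on D4 and at 3.82, 3.74 and 3.42 on D8 (-0.71 ± 0.0857, adjusted p = 1.50e-05). Dio2, which makes T3 from thyroxine, was at 3.32, 2.65 and 2.74 on D4 and at 2.59, 2.16 and 1.83 on D8 and was not called (adjusted p = 0.106). The days overlapped neither for Elovl3 nor for Gyk. Cpt1b, the muscle form of the carnitine shuttle enzyme, was too low to test, at 0.0773, 0.215 and 0.247 on D4 and 0.446, 0.385 and 2.15 on D8.

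The regulators of brown fat split in direction, much as all genes tested did (28.7% higher and 40.4% lower). Of 23 tested, 8 were higher and 9 lower, with 10 higher and 7 lower under median-ratio scaling, and the median of 0.11 turned to -0.05 when genes under 5 FPKM were left out. Irf4, a factor that works with Pgc-1α in brown fat, rose the most, from 0.0738, 0.212 and 0.164 to 8.16, 7.94 and 6.65 FPKM (log2 change 2.99 ± 0.285, adjusted p = 1.93e-06). Prdm16, a determinant of brown fate, was at 1.34, 1.47 and 1.29 on D4 and at 2.37, 2.22 and 1.74 on D8 (0.45 ± 0.0799, adjusted p = 0.000317). Ppargc1b, a coactivator of mitochondrial genes, was at 4.72, 5.27 and 4.20 and then at 8.81, 7.72 and 5.53 (0.63 ± 0.106, adjusted p = 0.000229). Its relative Ppargc1a was at 3.05, 3.505 and 3.43 on D4 and at 3.62, 3.60 and 3.15 on D8 and was not called (adjusted p = 0.417). Esrra, the estrogen-related receptor α that acts with these coactivators, went from 26.4, 33.0 and 31.4 to 40.5, 39.0 and 40.6 (0.42 ± 0.089, adjusted p = 0.0013). Zic1 and Lhx8, factors of the lineage, fell. Zic1 was at 10.9, 10.2 and 9.29 on D4 and at 4.05, 3.57 and 4.38 on D8 (-1.27 ± 0.0769, adjusted p = 4.11e-08), and Lhx8 at 29.9, 29.7 and 26.9 and then at 10.2, 10.3 and 8.76 (-1.45 ± 0.0563, adjusted p = 1.44e-09). For both, every D8 library was below every D4 library. Ebf2 was at 16.8, 17.3 and 13.1 on D4 and at 20.496, 19.6 and 13.2 on D8, where the days overlapped, with a log2 change of 0.22 that passed the test (adjusted p = 0.0216) but not without D4 replicate 1 (adjusted p = 0.095) or D8 replicate 1 (adjusted p = 0.108), nor with a replicate block over all 3 replicates (adjusted p = 0.067).

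The same comparison in white cells gave another picture for several of these genes. Across all genes the change in brown cells differed from that in white cells, by the interaction contrast, in 5631 of 14095 genes (40.0%), with 2089 above (14.8%) and 3542 below (25.1%). Under median-ratio scaling these were 3020 above and 2451 below, 55.2% of them above as against 37.1%. Among the thermogenic effectors 14 of 20 had the higher change in brown cells and 1 the lower. White cells had Ucp1 at 0.178, 0.0567 and 0.0371 on D4 and at 0, 0 and 0 on D8, so the difference in its change was 2.66 ± 0.15 (adjusted p = 7.97e-07). Cidea differed by 3.33 ± 0.214 (adjusted p = 1.85e-06). Ppargc1b fell in white cells (log2 change -0.95, adjusted p = 1.12e-05) and rose in brown cells, and Ppargc1a fell in white cells (-1.04, adjusted p = 1.12e-05). The change of Ppargc1a was 1.15 ± 0.165 higher in brown cells (adjusted p = 0.000285).

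Genes of the respiratory chain rose as a group in brown cells. The chain passes electrons through complexes I to IV and uses the proton gradient to drive ATP synthase, complex V. Of 81 nuclear genes of the 5 complexes, 73 were higher on D8 and 5 lower (Ndufb2, Cox7a2l, Atp5g1, Atp5g3 and Atpif1), and the median log2 change was 0.65 with a range of -0.66 to 5.51. By complex, 34 of 36 genes were higher for complex I, 4 of 4 for complex II, 9 of 9 for complex III, 14 of 16 for complex IV and 12 of 16 for complex V. The medians were 0.66, 0.75, 0.80, 0.85 and 0.45 in that order. With median-ratio scaling 74 of the 81 genes were higher and 3 lower, and the lower calls of complex I (Ndufb2) and complex IV (Cox7a2l) were lost. In complex I, Ndufs1 was at 41.2, 41.7 and 49.5 FPKM on D4 and at 83.4, 81.7 and 86.3 on D8 (log2 change 0.98 ± 0.0569, adjusted p = 2.87e-08). In complex III, Uqcrc1 went from 121, 135 and 167 to 278, 278 and 306 (1.12 ± 0.0688, adjusted p = 4.64e-08). In complex V, Atp5a1, the alpha subunit of its catalytic head, went from 350.0, 389.5 and 421 to 494, 497 and 506 (0.42 ± 0.0703, adjusted p = 0.000197). Atp5g1, which makes the membrane ring of complex V, fell from 13.7, 15.05 and 22.1 to 8.29, 9.17 and 13.3 (-0.66 ± 0.0665, adjusted p = 3.15e-06). Atpif1, an inhibitor of ATP synthase, was at 17.2, 17.0 and 49.8 on D4 and at 12.8, 12.8 and 39.2 on D8 (-0.39 ± 0.0545, adjusted p = 5.37e-05). The days overlapped for Atpif1 because replicate 3 was the highest on both days, and within each replicate D8 was below D4.

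Within complex IV the tissue forms rose far more than the general forms. The 4 tissue forms (Cox7a1, Cox8b and Cox6a2 of muscle and brown fat, and Cox4i2, best known from lung) had a median log2 change of 3.75. The 4 general forms (Cox7a2, Cox8a, Cox4i1 and Cox6a1) had 0.89. Of the general forms, Cox8a was at 381, 421 and 491 FPKM on D4 and at 759, 776 and 804 on D8, and Cox7a2 at 79.0, 90.5 and 119 on D4 and 135, 143 and 156 on D8. Cox4i2 went from 0.509, 0.576 and 0.406 to 14.6, 16.6 and 15.1. On D8 the FPKM of Cox7a1 in replicates 1 and 2 (191 on average) exceeded that of Cox7a2 (139), whereas on D4 it was 3.21 beside 84.8. Skeletal muscle markers rose over the same days (10 of 10 tested, sums of 23.8 to 39.0 and 127 to 140.2 FPKM, with Mb the highest of them on D8), and their part in this result was not tested.

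In white cells the chain moved little. There 15 of the 81 genes were higher and 7 lower, with a median of 0.04, and the change was larger in brown cells for 69 genes and smaller for 1. The general subunit Cox4i1 gives an example: 519, 579 and 687 FPKM on D4 and 986, 973 and 1027 on D8 in brown cells, 429, 395 and 519 and 390.3, 429 and 477 in white cells. The difference in its log2 change was 0.84 ± 0.0924 (adjusted p = 4.72e-05). The 13 mitochondrially encoded subunits were counted apart, with 4 higher and 1 lower in brown cells (median 0.12) and none higher and 5 lower in white cells (median -0.34). Their change was larger in brown cells for 5 and smaller for 1, and under median-ratio scaling 6 were higher and none lower in brown cells. The nuclear genes of mitochondrial ribosomal proteins gave 21 higher and 16 lower of 75 (median 0.00, and 40 higher and 8 lower under median-ratio scaling). These 2 lists were drawn up by gene symbol afterwards.

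**Figure D2:**
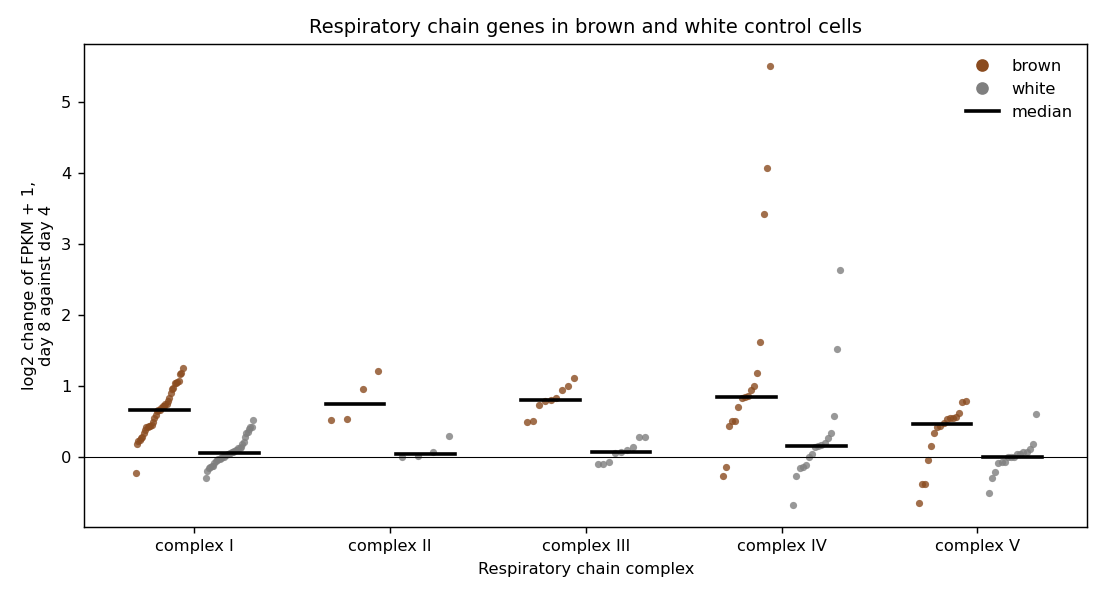
Log2 change from D4 to D8 (vertical axis, log2 of FPKM + 1) of the nuclear genes of each respiratory chain complex in brown and white control cells, with 1 point for each gene and a bar for the median. Brown medians lie between 0.45 and 0.85 in every complex, white medians between 0.00 and 0.15.

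Other mitochondrial pathways moved with the chain. All 28 genes of the citric acid cycle and of pyruvate entry were higher on D8, with a median log2 change of 0.94. Citrate synthase (Cs) was at 161, 179 and 174 FPKM on D4 and at 298, 293 and 249.5 on D8 (log2 change 0.79 ± 0.0571, adjusted p = 1.72e-07), and Sdha, the flavoprotein of complex II, at 145, 162 and 164 and 359, 351 and 325. Neither overlapped between the days. Of 22 tested genes of mitochondrial fatty acid oxidation 21 were higher and none lower (median 1.10). Hadhb, a subunit of the trifunctional protein, rose from 27.2, 28.5 and 41.1 to 124, 122 and 148 (2.11 ± 0.0523, adjusted p = 1.05e-10), and Acadm, medium-chain acyl-CoA dehydrogenase, from 92.9, 106 and 99.7 to 228, 227 and 211 (1.19 ± 0.119, adjusted p = 2.95e-06). The exception was Cpt1a, the liver form of the enzyme that commits fatty acids to oxidation, at 11.4, 9.91 and 9.19 and 9.80, 10.6 and 10.3 (adjusted p = 0.656). Cpt2, the next step of the shuttle, was at 35.2, 36.6 and 41.4 on D4 and at 82.3, 90.1 and 88.7 on D8 (1.24 ± 0.0629, adjusted p = 9.72e-09). The change was larger in brown than in white cells for 20 of these 22 genes and for 22 of the 28 genes of the cycle. Pcx, pyruvate carboxylase, was the 1 gene of the latter with a smaller change in brown cells (1.09 beside 1.57 in white, difference -0.47 ± 0.159, adjusted p = 0.0344).

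Breakdown of branched-chain amino acids, a fuel of brown fat, followed. Of 24 genes 19 were higher and 1 (Bdh1) lower (median 0.65). Bckdha, a subunit of the dehydrogenase that commits them, went from 36.2, 43.5 and 53.4 FPKM to 175, 177 and 183 (log2 change 2.12 ± 0.0915, adjusted p = 3.04e-09), and Pccb, of propionyl-CoA carboxylase, from 24.2, 28.8 and 32.0 to 93.7, 98.7 and 93.9 (1.83 ± 0.0828, adjusted p = 4.21e-09). Bcat2, the transaminase of the first step, was at 106, 127 and 148 and 123, 128 and 135 and was not called (adjusted p = 0.361). Peroxisomal genes moved less, with 12 of 21 higher and 1 (Amacr) lower (median 0.43). Ech1 rose from 59.2, 63.9 and 71.3 to 183, 186 and 199 (1.57 ± 0.0542, adjusted p = 7.26e-10). Ech1 is an enoyl-CoA isomerase that also works in mitochondria. Carriers and shaping proteins of mitochondria were mixed, with 14 of 27 higher and 8 lower (median 0.15), or 17 and 5 under median-ratio scaling. The fusion protein Mfn2 was at 26.6, 28.8 and 26.7 on D4 and at 47.6, 45.8 and 44.5 on D8 (0.73 ± 0.044, adjusted p = 3.68e-08). The import receptor Tomm20 went the other way, from 65.5, 71.7 and 80.6 to 46.2, 45.9 and 51.4 (-0.56 ± 0.0583, adjusted p = 3.87e-06), as did the chaperone Hspd1, from 322, 339.8 and 342 to 168, 178 and 164 (-0.93 ± 0.0615, adjusted p = 8.22e-08). Hspd1 overlaps Hspe1.

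Creatine and calcium cycling have been described as routes to heat without Ucp1. Of 12 genes tested 7 were higher and 2 lower (Alpl and Atp2a2, median 0.46), and 5 more were too low to test. Creatine kinase B (Ckb) went from 10.6, 12.7 and 13.3 FPKM to 35.6, 39.2 and 45.3 (log2 change 1.61 ± 0.107, adjusted p = 9.13e-08). The phosphatase Alpl fell from 7.22, 6.64 and 7.22 to 0.631, 0.372 and 0.269 (-2.40 ± 0.168, adjusted p = 1.33e-07). Of the calcium pumps of the endoplasmic reticulum, Atp2a3 rose from 0.545, 0.927 and 0.736 to 8.34, 7.65 and 7.14 (2.38 ± 0.115, adjusted p = 6.64e-09) and the more abundant Atp2a2 fell from 77.6, 76.4 and 69.2 to 56.1, 56.1 and 48.5 (-0.45 ± 0.0627, adjusted p = 4.80e-05). The change of Atp2a3 was 2.02 ± 0.163 larger in brown than in white cells (adjusted p = 6.61e-06).

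The transcription factors that start adipogenesis were already expressed on D4 and changed moderately. Of 18 activators 10 were higher and 4 lower (median 0.25), and of 19 factors that restrain adipogenesis 7 were higher and 7 lower (median -0.03), or 8 and 4 under median-ratio scaling. Pparg, the master regulator, was at 78.9, 94.6 and 89.9 FPKM on D4 and at 139.5, 137 and 118 on D8 (log2 change 0.67 ± 0.105, adjusted p = 0.000123). Cebpa was at 229, 271 and 297 on D4 and at 238, 223 and 254 on D8 and was not called (adjusted p = 0.332), with replicate 1 rising and replicates 2 and 3 falling. Cebpb, an early inducer, fell from 99.0, 94.9 and 155 to 71.3, 66.3 and 122 (-0.49 ± 0.096, adjusted p = 0.000711), with an overlap that came from the higher level of replicate 3 on both days. Mlxipl, the carbohydrate response factor ChREBP, had the largest rise of the activators, from 13.3, 16.2 and 15.5 to 52.4, 53.3 and 47.9 (1.78 ± 0.193, adjusted p = 5.89e-06). Among the restrainers, Dlk1, the preadipocyte factor Pref-1, was at 15.3, 15.1 and 14.98 on D4 and at 6.97, 5.02 and 6.86 on D8 (-1.23 ± 0.195, adjusted p = 0.00014). Klf2, a repressor of Pparg, rose from 0.942, 0.698 and 0.934 to 10.4, 9.87 and 12.6 (2.61 ± 0.112, adjusted p = 2.93e-09), and Nr2f2 fell from 31.0, 28.4 and 24.7 to 13.7, 13.5 and 11.3 (-1.07 ± 0.0615, adjusted p = 2.55e-08).

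Lipid synthesis rose together. De novo lipogenesis turns citrate from glucose into fatty acids. Of its 23 tested genes 21 were higher and 1 lower, with a median log2 change of 1.25. Fatty acid synthase (Fasn) was at 193, 234 and 233 FPKM on D4 and at 867, 795 and 796 on D8 (1.96 ± 0.206, adjusted p = 4.46e-06). Scd1, the desaturase that makes oleate, went from 1633, 1839.8 and 1853 to 8438, 8207 and 7547 (2.26 ± 0.0724, adjusted p = 4.33e-10), the highest level of the list. Acacb, the mitochondrial acetyl-CoA carboxylase, went from 2.78, 3.58 and 3.09 to 46.2, 40.0 and 36.0, a 13.5-fold rise (3.40 ± 0.0993, adjusted p = 2.54e-10). Thrsp (Spot 14), a target of thyroid hormone, went from 88.0, 119 and 146 to 1061, 1092 and 1174, and Pnpla3 from 4.93, 5.34 and 5.91 to 64.8, 69.6 and 61.9. The 1 member lower on D8 was Elovl1, an elongase of very long chains, at 40.4, 43.2 and 44.9 on D4 and 31.7, 32.2 and 33.5 on D8 (-0.38 ± 0.0491, adjusted p = 2.82e-05). It overlaps the mitosis gene Cdc20. Unlike the mitochondrial lists, lipogenesis did not lean to brown cells: the change was larger there for 6 genes and smaller for 6 (white median 1.17).

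Triglyceride synthesis changed in its isoforms. Of 14 genes 8 were higher and 3 lower (Agpat9, Lpin2 and Gyk, median 0.65). Lipin 1 (Lpin1) rose from 30.9, 36.5 and 34.0 FPKM to 154, 141 and 118 (log2 change 2.10 ± 0.128, adjusted p = 4.19e-08) as lipin 2 (Lpin2) fell from 5.76, 5.21 and 4.69 to 2.76, 2.94 and 2.54 (-0.75 ± 0.0736, adjusted p = 2.43e-06). Of the enzymes that add the first acyl chain to glycerol phosphate, Gpam of the mitochondria rose from 59.7, 69.0 and 58.8 to 136, 131 and 105 (1.05 ± 0.0922, adjusted p = 9.58e-07), and Agpat9 of the endoplasmic reticulum fell from 28.8, 33.5 and 38.2 to 4.88, 5.92 and 5.38 (-2.33 ± 0.147, adjusted p = 5.82e-08). Gpd2, of the glycerol phosphate shuttle, was at 3.32, 3.13 and 3.02 on D4 and at 46.6, 45.2 and 39.0 on D8 (3.47 ± 0.168, adjusted p = 6.93e-09). Dgat2, which closes the pathway, was at 262, 309.6 and 348 on D4 and at 263, 254 and 262 on D8 and was not called (adjusted p = 0.205). Fatty acid uptake and activation were mixed, with 7 of 16 higher and 5 lower (Fabp5, Slc27a3, Slc27a4, Acsl1 and Acsl4, median -0.13), or 7 and 4 under median-ratio scaling (median 0.04). Acsl1, the main acyl-CoA synthetase of fat, fell from 317, 372 and 367 to 105, 97.0 and 94.9 (-1.76 ± 0.0888, adjusted p = 9.44e-09), while the transporter Cd36 rose from 89.4, 100.7 and 109.8 to 229, 231 and 221 (1.27 ± 0.0911, adjusted p = 1.70e-07). In white cells Acsl1 was not called, and the difference between the depots was -1.61 ± 0.126 (adjusted p = 5.51e-06). Angptl4, an inhibitor of lipoprotein lipase, went from 21.6, 22.0 and 25.4 to 116, 122 and 125, a 5.45-fold rise (2.39 ± 0.0989, adjusted p = 2.25e-09).

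Droplet and lipolysis genes rose in most cases. Of 13 droplet proteins 10 were higher and none lower (median 0.59). The largest rises, besides Cidea, were in Plin5, which ties droplets to mitochondria, from 1.39, 1.31 and 1.29 FPKM to 22.8, 18.3 and 27.1 (log2 change 3.19 ± 0.112, adjusted p = 8.27e-10), and in Plin4, from 18.3, 21.2 and 19.0 to 97.3, 93.4 and 76.9 (2.22 ± 0.0917, adjusted p = 2.25e-09). Plin2 was at 117, 132 and 142 on D4 and at 270.4, 291 and 293 on D8 (1.17 ± 0.0665, adjusted p = 2.41e-08). Of 21 lipolysis genes 14 were higher and 3 lower (Abhd5, Ces1f and Prkar2b, median 0.65). The call of Prkar2b was lost without D4 replicate 2 (adjusted p = 0.0971) and under median-ratio scaling (adjusted p = 0.193). Pnpla2, adipose triglyceride lipase, went from 270.2, 326 and 386 to 775, 777 and 821 (1.38 ± 0.103, adjusted p = 2.25e-07). Its inhibitor G0s2 rose too, from 199, 219 and 268 to 364, 388 and 424 (0.84 ± 0.0861, adjusted p = 3.48e-06), and its activator Abhd5 fell from 88.5, 92.5 and 94.7 to 69.0, 67.2 and 69.5 (-0.41 ± 0.0684, adjusted p = 0.000229). Hormone-sensitive lipase (Lipe) was at 78.4, 95.3 and 128 on D4 and at 135, 138 and 179.9 on D8 (0.65 ± 0.101, adjusted p = 0.000119). Monoglyceride lipase (Mgll) was at 30.0, 35.3 and 35.2 and at 32.3, 32.9 and 33.1, without a call (adjusted p = 0.979). O3far1, the receptor of long-chain fatty acids also called Gpr120, rose from 1.50, 2.07 and 3.12 to 29.9, 27.9 and 31.3 (3.43 ± 0.176, adjusted p = 1.07e-08). In white cells its change was 0.00, and the difference was 3.43 ± 0.249, adjusted p = 3.51e-06.

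Glycolysis rose with lipogenesis. Of 19 genes 18 were higher and 1 lower (median 1.23). Hexokinase 2 (Hk2) was at 22.6, 22.6 and 21.6 FPKM on D4 and at 56.8, 56.7 and 47.4 on D8 (log2 change 1.29 ± 0.0339, adjusted p = 1.21e-10). Pfkp, a phosphofructokinase, went from 12.9, 13.4 and 13.6 to 64.8, 65.4 and 58.1 (2.22 ± 0.0525, adjusted p = 9.99e-11), and Pfkfb3, which makes its activator, from 23.4, 24.1 and 22.5 to 109, 104 and 87.9 (2.12 ± 0.179, adjusted p = 6.81e-07). The member lower on D8 was the monocarboxylate transporter Slc16a1, at 46.6, 42.1 and 44.1 and then 22.0, 23.005 and 21.7 (-0.95 ± 0.117, adjusted p = 1.72e-05). Hk2 fell slightly in white cells (-0.11, adjusted p = 0.0119), and the difference between depots was 1.41 ± 0.0479, adjusted p = 3.12e-08. Of 18 genes of insulin signalling and glucose uptake 13 were higher and 3 lower (Irs2, Akt1 and Igf1r, median 0.40), or 14 and 2 under median-ratio scaling. Slc2a4, the insulin-responsive glucose transporter GLUT4, rose from 17.0, 22.3 and 23.2 to 125, 127 and 117 (2.63 ± 0.17, adjusted p = 6.77e-08). The adaptors went apart, Irs1 from 2.64, 3.01 and 2.27 to 5.80, 4.76 and 4.18 (0.71 ± 0.09, adjusted p = 2.14e-05) and Irs2 from 18.8, 17.8 and 13.5 to 11.9, 10.1 and 8.54 (-0.69 ± 0.0747, adjusted p = 6.00e-06).

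Genes of the vascular and oxygen response were higher in 13 of 15 cases and lower in 2 (median 0.54). Adrenomedullin (Adm) went from 27.0, 25.5 and 30.2 FPKM to 292, 286 and 285 (log2 change 3.41 ± 0.0639, adjusted p = 2.49e-11), and Bnip3, a mitophagy receptor induced by low oxygen, from 100.3, 106 and 117 to 657, 671 and 599 (2.68 ± 0.125, adjusted p = 5.33e-09). Vegfa, the main angiogenic factor, was at 116, 114 and 101.2 on D4 and at 224, 224 and 182 on D8 (0.95 ± 0.0441, adjusted p = 4.80e-09). The exceptions were Hif1a, the oxygen-sensing factor, from 52.4, 45.5 and 50.6 to 23.5, 23.99 and 27.8 (-1.01 ± 0.153, adjusted p = 9.50e-05), and apelin (Apln), from 76.1, 60.3 and 64.7 to 37.0, 40.3 and 39.9 (-0.80 ± 0.105, adjusted p = 3.09e-05). Amino acid enzymes, a list with Aspg in it, gave 9 of 14 higher and 4 lower (Asns, Got1, Got2 and Oat, median 1.15), and 2 lower under median-ratio scaling. Prodh, proline dehydrogenase, was second to Aspg, at 4.46, 5.94 and 7.16 on D4 and 82.4, 81.0 and 76.5 on D8 (3.75 ± 0.22, adjusted p = 3.02e-08).

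**Figure D3:**
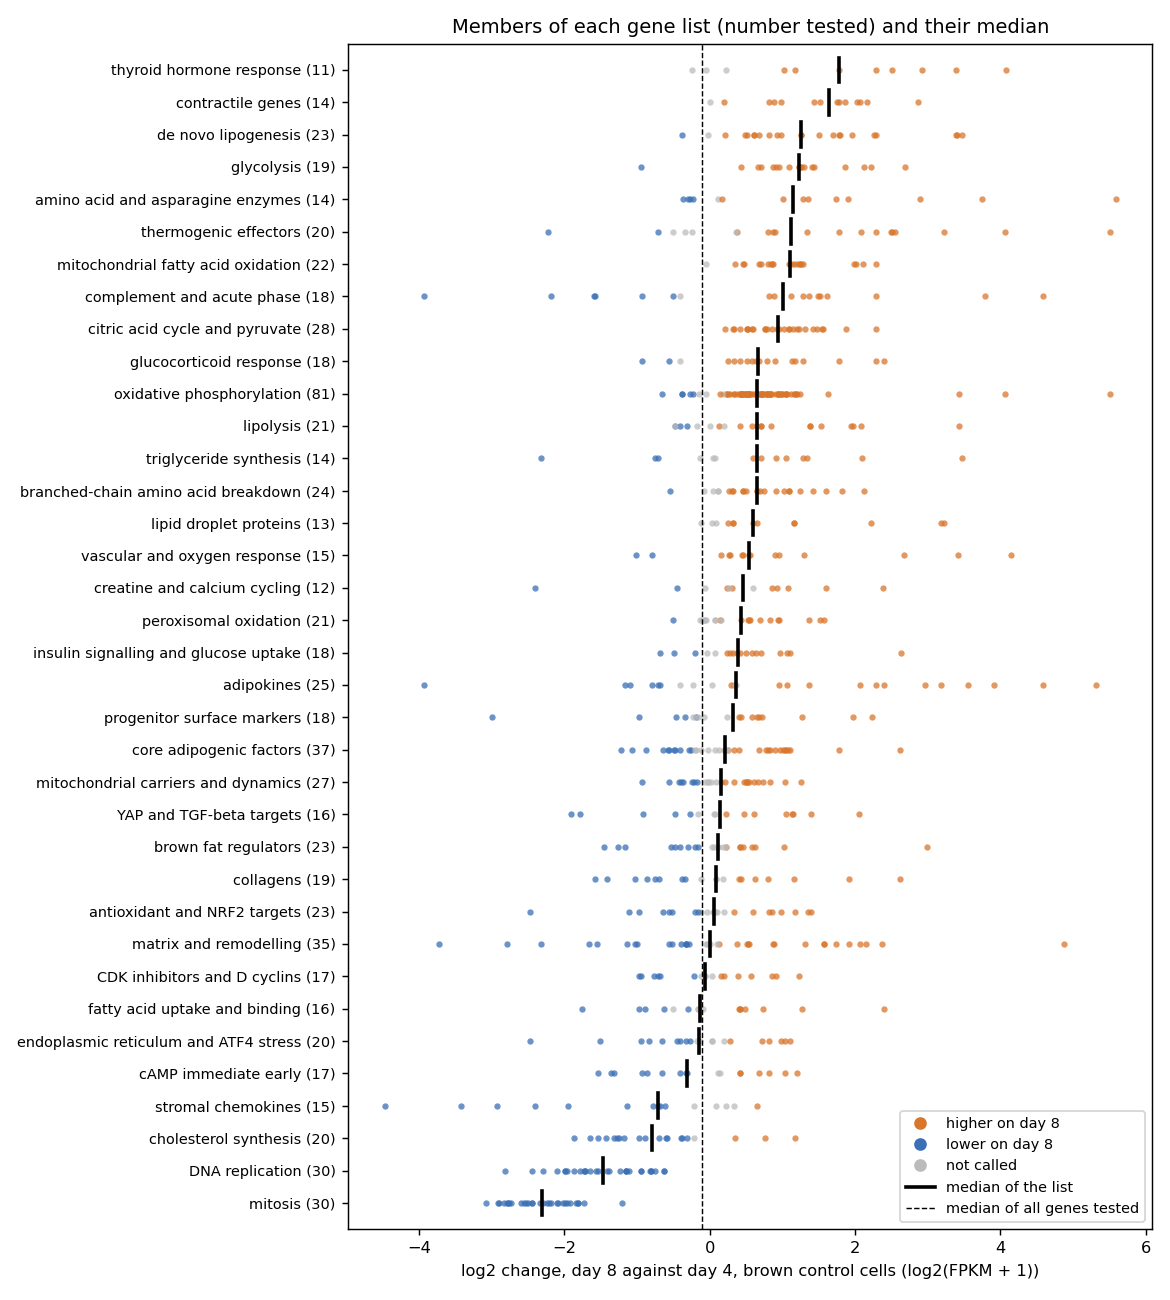
Log2 change from D4 to D8 in brown control cells (horizontal axis, log2 of FPKM + 1) of every tested member of each gene list, without the cell type markers, the 2 tested proliferin genes and the complex IV isoforms, ordered by the median of the list (bar), with the median of all genes tested as a dashed line. Of the lists drawn, mitosis and DNA replication stand lowest, at -2.31 and -1.47, with no member higher on D8, and all 28 genes of the citric acid cycle and pyruvate entry stand above 0.

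Secreted factors of fat cells rose in part. Of 25 adipokines tested 14 were higher and 6 lower (median 0.37). Besides leptin, adipsin (Cfd) went from 90.4, 107 and 146 FPKM to 1173, 1159 and 1436 (log2 change 3.55 ± 0.13, adjusted p = 1.02e-09), and resistin (Retn) from 22.7, 26.7 and 35.8 to 226, 237 and 256 (3.18 ± 0.133, adjusted p = 2.48e-09). In contrast Gdf15, a stress hormone, fell from 12.7, 12.96 and 16.7 to 4.97, 5.38 and 6.67 (-1.17 ± 0.187, adjusted p = 0.000153). Complement and acute phase genes had 11 of 18 higher and 6 lower (median 1.01), and the change was smaller in brown than in white cells for 16 of the 18. C4b rose from 13.1, 12.5 and 13.1 to 192, 187 and 192 (3.79 ± 0.0789, adjusted p = 3.46e-11) and C3, the hub of complement, from 145, 166 and 171 to 408, 396 and 386 (1.37 ± 0.142, adjusted p = 3.99e-06). In white cells C3 changed by 3.03, and the difference was -1.66 ± 0.201, adjusted p = 9.48e-05. Orm1, orosomucoid, went from 1.54, 1.78 and 2.00 to 63.9, 61.8 and 49.4, while Saa3, described above, and Saa2, from 9.01, 8.31 and 8.88 to 1.02, 1.25 and 0.835 (-2.18 ± 0.198, adjusted p = 1.26e-06), fell. Near-identical Saa and Orm genes can share reads, so the split within these families is uncertain. Macrophage markers, some of which are complement genes (C1qa), did not move with this list in brown cells, with 1 of 13 higher and 2 lower. In white cells 11 of them were higher, and their part in the difference between the depots was not tested.

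The media differed in 3 hormonal signals, and a list was described for each. Dexamethasone was present until D4 and then withdrawn. Of 18 glucocorticoid targets 15 were higher on D8 and 2 lower (median 0.66). Fkbp5, which feeds back on the receptor, was at 71.5, 75.5 and 78.1 FPKM on D4 and at 145, 132 and 139 on D8 (log2 change 0.90 ± 0.21, adjusted p = 0.00231). Tsc22d3 (Gilz) went from 37.9, 39.0 and 44.4 to 89.9, 81.2 and 90.8 (1.13 ± 0.289, adjusted p = 0.00426), and Klf9 from 51.0, 50.1 and 39.6 to 119.9, 112 and 87.0 (1.18 ± 0.0721, adjusted p = 4.28e-08). For all 18 targets the days did not overlap, beside 64.1% of all genes. The targets lower on D8 were Ddit4, from 192, 186 and 142 to 102, 95.7 and 74.96 (-0.93 ± 0.23, adjusted p = 0.00359), and Nfkbia, from 30.0, 33.3 and 29.9 to 22.2, 20.2 and 20.3 (-0.56 ± 0.0805, adjusted p = 6.53e-05). Thyroid hormone was present from D4 on. Of 11 targets tested 8 were higher and none lower (median 1.78). Hr, hairless, a corepressor induced by T3 in many tissues, rose from 0.204, 0.44 and 0.244 to 21.8, 20.7 and 19.2 (4.08 ± 0.15, adjusted p = 1.03e-09). Thrsp and Me1, malic enzyme, both on the lipogenic list, rose 10.4-fold and 4.92-fold. Klf9 stands on the glucocorticoid and the thyroid list, and Ucp1, Mlxipl and Me1 stand on the thyroid list and on others, so the lists are not independent.

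The third signal, cAMP, was raised by IBMX until D4. In white cells all 17 genes of the cAMP and immediate early list were lower on D8 (median -1.12). In brown cells 9 were lower and 6 higher (median -0.32), and the change was higher in brown than in white cells for 14 and lower for none. Fos was at 12.3, 10.4 and 11.998 FPKM on D4 and at 28.4, 26.3 and 28.0 on D8 in brown cells (log2 change 1.20 ± 0.105, adjusted p = 8.88e-07) and at 23.7, 20.7 and 22.7 on D4 and 3.40, 3.43 and 3.95 on D8 in white cells. Egr1 was at 50.7, 52.4 and 58.7 on D4 and at 106, 107 and 109 on D8 in brown cells (1.03 ± 0.227, adjusted p = 0.00159) and at 139, 132 and 155 on D4 and 31.2, 14.4 and 19.7 on D8 in white cells. Fos and Egr1, transcription factors induced within minutes of a stimulus, thus rose in brown and fell in white cells, in all 3 replicates. The differences were 3.59 ± 0.148, adjusted p = 1.32e-07 for Fos and 3.65 ± 0.321, adjusted p = 1.16e-05 for Egr1, which overlaps Gm17507. Genes that fell in both depots included the nuclear receptor Nr4a1, from 48.5, 43.7 and 41.8 to 17.9, 18.04 and 18.6 in brown cells (-1.31 ± 0.274, adjusted p = 0.00112), and the phosphodiesterase Pde4b, from 14.03, 13.6 and 12.4 to 3.95, 4.29 and 3.25 (-1.53 ± 0.079, adjusted p = 1.10e-08). Per1, a clock gene on this list and on that of glucocorticoid targets, rose in brown cells from 25.8, 25.7 and 23.4 to 36.8, 32.8 and 29.3 (0.42 ± 0.0635, adjusted p = 9.41e-05) and fell in white cells (-0.56).

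**Figure D4:**
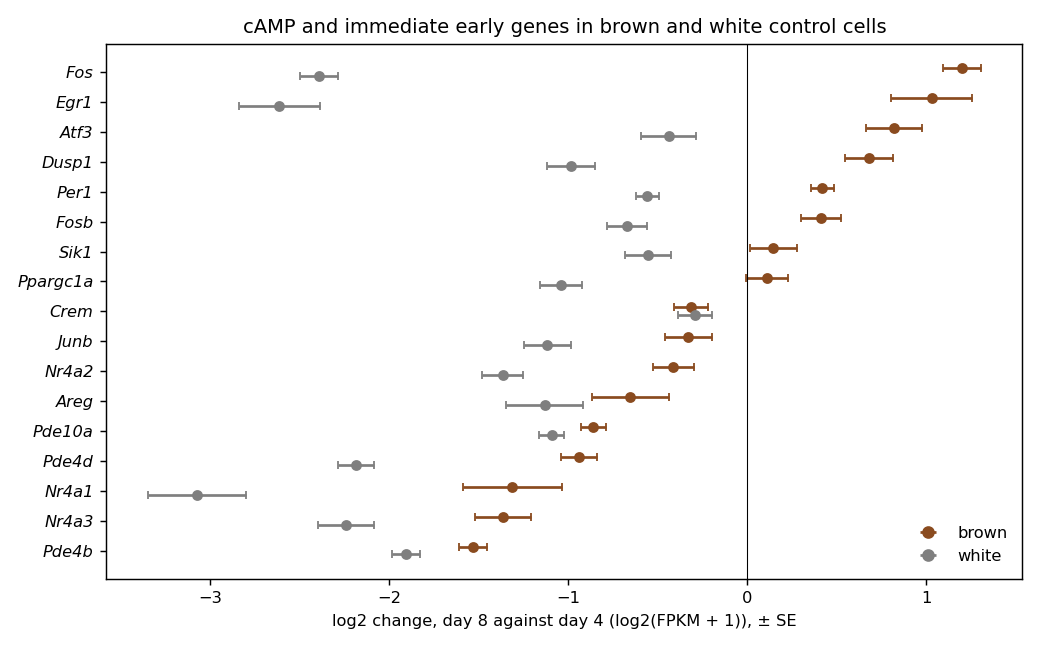
Log2 change from D4 to D8 (horizontal axis, log2 of FPKM + 1, bars show SE) of the 17 genes of the cAMP and immediate early list in brown and white control cells. All 17 lie below 0 in white cells, and 6 were called higher in brown cells, Fos and Egr1 farthest apart from white.

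Genes of cell division fell throughout. All 30 genes of DNA replication were lower on D8 (median -1.47, range -2.81 to -0.63), and so were all 30 of mitosis (median -2.31, range -3.08 to -1.21). In either list the days did not overlap for any of the 30 genes, beside 64.1% of all genes. Top2a, the topoisomerase that untangles chromosomes, was at 41.0, 37.8 and 32.5 FPKM on D4 and at 3.39, 4.21 and 3.501 on D8 (log2 change -3.08 ± 0.0785, adjusted p = 1.05e-10). Cdk1, the kinase that starts mitosis, went from 16.6, 18.02 and 17.4 to 2.61, 3.28 and 3.18 (-2.22 ± 0.0812, adjusted p = 1.02e-09), and its partner cyclin B2 (Ccnb2) from 19.6, 19.6 and 21.0 to 1.76, 2.29 and 2.46 (-2.77 ± 0.095, adjusted p = 7.26e-10). Mki67, the Ki-67 antigen, was at 16.4, 15.8 and 13.2 on D4 and at 1.42, 1.54 and 1.69 on D8 (-2.79 ± 0.0764, adjusted p = 1.64e-10). Of the replication genes, Mcm5, of the helicase, went from 15.2, 15.2 and 15.2 to 1.05, 1.59 and 1.49 (-2.81 ± 0.127, adjusted p = 4.06e-09), and Pcna, the clamp of DNA polymerase, from 88.6, 87.1 and 90.2 to 28.4, 31.0 and 27.7 (-1.53 ± 0.0554, adjusted p = 9.77e-10). White cells also had all 30 of each list lower, and the fall was larger in brown cells for 28 of the 30 mitosis genes and 16 of the 30 replication genes. In white cells Top2a was at 19.8, 20.2 and 19.3 on D4 and at 3.32, 3.27 and 3.05 on D8.

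The promoters of 3 of the mitosis genes, which moved together, are shown. They were chosen among the named genes because each holds both CCAAT and TTTGAA, as 9 of 26 mitosis promoters do. In each, the 250 bases before the start of the gene are given 5′ to 3′ on the strand of the gene (RefSeq, build GRCm38.p6). Capitals mark CCAAT and TTTGAA on either strand, where the other strand reads ATTGG or TTCAAA here. The CCAAT box is bound by NF-Y, and TTTGAA is the core of the cell cycle homology region of G2 and M genes.
Top2a, chr11:99024190-99024439, minus strand, 6 CCAAT and 2 TTTGAA: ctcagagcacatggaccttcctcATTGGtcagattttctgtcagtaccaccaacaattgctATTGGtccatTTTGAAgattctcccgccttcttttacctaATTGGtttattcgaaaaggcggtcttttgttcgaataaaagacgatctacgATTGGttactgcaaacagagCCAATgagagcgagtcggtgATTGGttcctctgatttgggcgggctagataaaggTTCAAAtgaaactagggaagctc
Cdk1, chr10:69352913-69353162, minus strand, 3 CCAAT and 2 TTTGAA: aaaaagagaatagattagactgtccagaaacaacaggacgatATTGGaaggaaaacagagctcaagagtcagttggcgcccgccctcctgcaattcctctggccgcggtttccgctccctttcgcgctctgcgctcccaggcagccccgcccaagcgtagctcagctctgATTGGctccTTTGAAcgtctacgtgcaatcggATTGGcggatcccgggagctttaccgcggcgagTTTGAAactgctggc
Ccnb2, chr9:70421555-70421804, minus strand, 3 CCAAT and 1 TTTGAA: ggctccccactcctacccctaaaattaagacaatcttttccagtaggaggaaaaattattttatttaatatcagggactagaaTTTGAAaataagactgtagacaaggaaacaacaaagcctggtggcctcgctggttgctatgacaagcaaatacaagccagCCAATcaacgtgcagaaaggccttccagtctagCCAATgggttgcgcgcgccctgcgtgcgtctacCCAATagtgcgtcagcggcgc

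Of the 30 mitosis genes 25 matched a RefSeq promoter, with 26 promoters in all. A CCAAT was found in 23 of the 26 (88.5%), beside 33.8% of all 32851 promoters of the same length. TTTGAA was found in 9 (34.6%, beside 5252 of all 32851 promoters), and these 9 also held CCAAT, a combination found in 5.55% of all promoters. No copy of one motif overlapped a copy of the other in the 3 promoters shown. For the replication genes (24 matched, 27 promoters) CCAAT was found in 19 (70.4%) and TTTGAA in 2 (7.41%). For the respiratory chain (66 genes matched, 71 promoters) CCAAT was found in 28 (39.4%), and AAGGTCA, letters that estrogen-related receptors recognise, in 6 (8.45%, beside 4.08% of all promoters). A match is a run of letters, not a site in use.

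The brakes on the cell cycle did not move as a group. Of 17 inhibitors of cyclin-dependent kinases, D cyclins and relatives, 7 were higher and 6 lower, with a median of -0.07 that turned to 0.10 under median-ratio scaling. Cdkn1a (p21) rose from 82.6, 88.2 and 84.3 FPKM to 197, 207 and 197 (log2 change 1.23 ± 0.0603, adjusted p = 7.53e-09), and Rb1, the retinoblastoma protein, from 7.56, 7.47 and 7.32 to 15.5, 14.4 and 12.7 (0.91 ± 0.0561, adjusted p = 4.81e-08). Rbl1 (p107), the relative of Rb1 that cycling cells express, fell from 5.47, 5.35 and 4.39 to 2.43, 2.11 and 1.70 (-0.97 ± 0.0803, adjusted p = 5.47e-07), and Trp53 (p53) from 29.9, 27.5 and 29.2 to 14.1, 14.8 and 15.1 (-0.94 ± 0.0628, adjusted p = 8.89e-08). Cyclin D1 (Ccnd1) was at 9.53, 9.33 and 8.67 on D4 and at 17.2, 18.7 and 17.9 on D8 (0.86 ± 0.0684, adjusted p = 4.05e-07). Genes of cytosolic ribosomal proteins, a list drawn up by symbol afterwards, were lower in all 80 cases (median -0.89) and in 79 under median-ratio scaling. Their change was lower in brown than in white cells for 76 of the 80, with a median in white cells of -0.43. They share reads with many pseudogenes.

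Cholesterol synthesis went against the other lipid pathways. Of 20 genes 16 were lower on D8 and 3 higher (Pmvk, Fdft1 and Sc5d, median -0.79), with 14 lower and 3 higher under median-ratio scaling. Squalene epoxidase (Sqle), which starts the sterol-specific steps, was at 26.5, 26.6 and 26.5 FPKM on D4 and at 8.40, 8.51 and 8.89 on D8 (log2 change -1.54 ± 0.1, adjusted p = 7.08e-08). The members higher on D8 included Sc5d, a late desaturase, from 25.1, 27.8 and 25.8 to 61.3, 60.3 and 51.3 (1.17 ± 0.0637, adjusted p = 1.69e-08). The change was lower in brown than in white cells for 10 of the 20 and higher for 1 (Fdft1). In the promoters of 13 matched genes (16 promoters), CCAAT was found in 13 (81.2%), and TCACNCCAC, the letters of the sterol response element, in none, beside 1.05% of all promoters. That says only that those letters are not in this window.

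Matrix genes changed in both directions, beside 28.7% higher and 40.4% lower of all genes tested. Of 19 collagen chains 7 were higher and 8 lower (median 0.09), or 10 and 7 under median-ratio scaling. Col3a1, the most abundant chain on D4, fell from 4492, 3968 and 4103 FPKM to 1554, 1606 and 1764 (log2 change -1.42 ± 0.147, adjusted p = 4.02e-06), and Col15a1, of the basement membrane zone, from 315, 326 and 322 to 103, 111 and 121 (-1.58 ± 0.156, adjusted p = 2.69e-06). Col8a1 rose from 9.62, 12.8 and 12.5 to 70.4, 76.1 and 72.7 (2.62 ± 0.127, adjusted p = 6.89e-09), and Col4a5 from 1.51, 1.91 and 2.03 to 8.93, 9.53 and 9.06 (1.92 ± 0.0739, adjusted p = 1.38e-09). Col1a1 was at 914, 926 and 1039.6 on D4 and at 1029.8, 1060.4 and 1429 on D8 and was not called (adjusted p = 0.136). Of 35 other matrix genes 16 were higher and 15 lower (median 0.00), or 16 and 11 under median-ratio scaling. Elastin (Eln) rose from 6.27, 7.27 and 6.29 to 38.6, 39.8 and 40.6 (2.37 ± 0.182, adjusted p = 2.87e-07), and lysyl oxidase (Lox), which crosslinks elastin and collagen, from 457, 408 and 377 to 1078, 1070.2 and 1035 (1.31 ± 0.0663, adjusted p = 9.48e-09). Versican (Vcan), a proteoglycan of young matrix, fell from 184, 171 and 134 to 26.2, 23.7 and 21.5 (-2.78 ± 0.0687, adjusted p = 1.05e-10). Mmp3 and Prg4 behaved otherwise in white cells, where they were not called, and the differences were -4.19 ± 0.294, adjusted p = 2.78e-06 for Mmp3 and -3.91 ± 0.292, adjusted p = 4.13e-06 for Prg4.

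Contractile genes of smooth muscle and myofibroblasts were higher in 13 of 14 cases and lower in none (median 1.63). Acta2, smooth muscle actin, was at 47.5, 61.2 and 64.2 FPKM on D4 and at 209, 249.8 and 294 on D8 (log2 change 2.06 ± 0.175, adjusted p = 7.19e-07). Myl9, a myosin light chain, went from 8.75, 10.2 and 12.1 to 73.3, 77.3 and 94.7 (2.86 ± 0.145, adjusted p = 9.53e-09), and Myh11, which marks mature smooth muscle, from 1.16, 1.59 and 1.53 to 10.2, 9.13 and 9.25 (2.17 ± 0.111, adjusted p = 1.06e-08). The skeletal muscle gene Acta1 went from 5.19, 8.79 and 7.45 to 20.0, 18.2 and 23.8 (1.37 ± 0.17, adjusted p = 1.91e-05) over the same days, and the part of muscle cells of either kind was not tested. In white cells 11 of the 14 contractile genes were higher and 1 lower. Of 16 targets and pathway components of YAP and TGF-beta 8 were higher and 5 lower (median 0.15), or 9 and 4 under median-ratio scaling. The 5 lower were ligands (Tgfb1 and Tgfb2), receptors (Tgfbr1 and Tgfbr2) and the signal transducer Smad3, not targets. Ctgf rose from 17.6, 21.4 and 35.5 to 77.3, 91.5 and 148 (2.06 ± 0.185, adjusted p = 1.13e-06) and Cyr61 from 114, 120.3 and 125 to 304, 315 and 319 (1.40 ± 0.139, adjusted p = 2.81e-06). Cyr61 fell in white cells (-1.49, adjusted p = 2.54e-06), and the difference was 2.89 ± 0.197 (adjusted p = 2.36e-06). The receptor Tgfbr1 fell from 42.4, 37.1 and 35.1 to 9.23, 10.4 and 9.21 (-1.91 ± 0.099, adjusted p = 1.14e-08).

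Markers of progenitors, a list of surface proteins that also holds the secreted ligand Wnt2, did not fall together. Of 18 tested 9 were higher on D8 and 5 lower (Pdgfra, Pdgfrb, Cd24a, Itga5 and Wnt2, with Pdgfrb not called under median-ratio scaling, median 0.32), and the change was smaller in brown than in white cells for 10 and larger for 1 (F3). Pdgfra, a receptor of adipocyte progenitors, was at 88.8, 76.5 and 70.0 FPKM on D4 and at 59.3, 59.2 and 54.4 on D8 (log2 change -0.47 ± 0.0855, adjusted p = 0.000404), and rose in white cells (0.40). Cd24a fell from 13.7, 10.1 and 11.1 to 0.439, 0.783 and 0.655 (-2.99 ± 0.148, adjusted p = 8.08e-09), and the integrin Itga5 from 103, 89.7 and 88.7 to 46.8, 49.9 and 52.8 (-0.97 ± 0.0729, adjusted p = 2.39e-07). Ly6a (Sca-1) went from 207, 149 and 161 to 297, 282 and 302 (0.72 ± 0.16, adjusted p = 0.00171), and Ly6c1 from 16.2, 12.8 and 14.3 to 60.1, 58.8 and 64.5 (1.97 ± 0.17, adjusted p = 8.00e-07). In white cells the changes were 3.21 for Ly6a and 5.05 for Ly6c1, and the differences, -2.49 ± 0.226 and -3.08 ± 0.24, had adjusted p = 1.37e-05 and 5.51e-06. Ly6 genes are close relatives and can share reads.

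Chemokines and cytokines of stromal cells were lower in 10 of 15 cases and higher in 1 (Lif, median -0.71), or lower in 10 and higher in 3 under median-ratio scaling. Beside Cxcl5 and Ccl11, Cxcl1 went from 19.2, 17.3 and 13.1 FPKM to 1.31, 1.78 and 0.95 (log2 change -2.92 ± 0.218, adjusted p = 2.32e-07), and Cxcl12, the most abundant of those named, from 132, 122 and 131 to 81.3, 83.1 and 80.6 (-0.62 ± 0.119, adjusted p = 0.000606). Genes of endoplasmic reticulum stress and of ATF4 gave 6 of 20 higher and 9 lower, with a median of -0.15 that was 0.02 under median-ratio scaling, where 9 were higher and 7 lower. Trib3, a pseudokinase induced by stress, rose from 28.2, 30.6 and 36.8 to 62.6, 66.2 and 63.9 (1.10 ± 0.123, adjusted p = 7.07e-06), and Psat1, of serine synthesis, fell from 72.7, 82.3 and 83.5 to 27.0, 26.2 and 28.2 (-1.51 ± 0.0571, adjusted p = 1.26e-09). White cells had 16 of the 20 lower and 1 higher, and the change was higher in brown cells for 12 and lower for 2. Antioxidant genes were split, with 8 of 23 higher and 8 lower (median 0.06), but 12 higher and 6 lower under median-ratio scaling (median 0.22). Slc7a11, the cystine transporter, fell from 7.27, 5.48 and 4.599 to 0.319, 0.316 and 0.251 (-2.47 ± 0.136, adjusted p = 1.80e-08), whereas Gpx3, the secreted glutathione peroxidase, rose from 669, 659 and 772 to 1738, 1655 and 1759 (1.35 ± 0.0704, adjusted p = 1.18e-08).

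Set side by side with white cells, the brown cells differed in muscle-type, mitochondrial and immediate early genes. Brown and white cells were called in opposite directions, with a called difference, in 583 genes. Differences were ranked among called genes with a mean of at least 5 FPKM in a group and the same sign in 3 replicates. There the brown change exceeded the white change the most for Mb (4.37 ± 0.221, adjusted p = 5.03e-07), which was at 0.969, 1.01 and 1.54 FPKM in white cells on D4 and at 2.87, 2.25 and 2.95 on D8. The next was Cox8b (3.74 ± 0.321, adjusted p = 1.04e-05), at 4.63, 5.35 and 6.91 on D4 and 6.17, 6.88 and 6.50 on D8 in white cells. At the other end stood Reg1, a secreted lectin of the pancreas and gut, at 2.605, 2.47 and 3.46 on D4 and 1.28, 1.25 and 2.42 on D8 in brown cells and at 0.958, 1.75 and 1.26 on D4 and 46.8, 22.9 and 30.6 on D8 in white cells (-4.51 ± 0.353, adjusted p = 5.51e-06), followed by Mmp3 and Prg4. The change of skeletal muscle markers was larger in brown cells for 9 of the 10 tested, and 7 of the 10 were lower on D8 in white cells. For fatty acid oxidation the medians were 1.10 in brown and 0.37 in white cells, and for complement 1.01 and 1.75. The change was larger in brown cells for 20 of 22 oxidation genes and smaller for none, and smaller for 16 of 18 complement genes and larger for none. Glycolysis had medians of 1.23 and 0.93, with a larger change in brown cells for 9 of 19 genes and a smaller one for none. Thyroid hormone targets had 1.78 and 0.89, with a larger change in brown cells for 4 of 11 and a smaller one for 1 (Me1). Collagens had 0.09 and 0.11, yet 12 of 19 differed, 4 above and 8 below the white change.

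**Figure D5:**
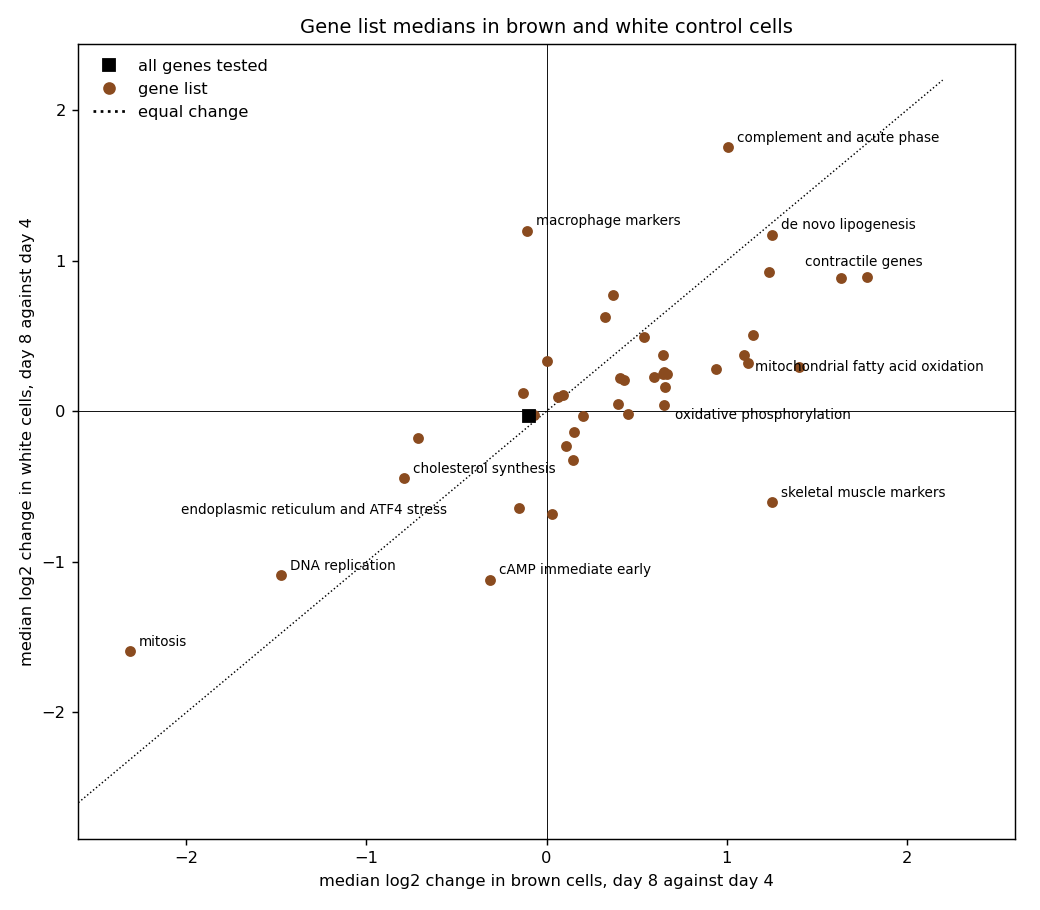
Median log2 change from D4 to D8 of each gene list with at least 6 tested members, in brown (horizontal axis) and white (vertical axis) control cells, with all genes tested as a black square and a dotted line of equal change. Oxidative phosphorylation (0.65 and 0.04), cAMP and immediate early genes (-0.32 and -1.12) and skeletal muscle markers (1.25 and -0.60) lie on the brown side of the line, and macrophage markers (-0.11 and 1.20) on the white side.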

How the data were processed

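RNA of mouse SVF cells was sequenced in 24 libraries, of which the 6 brown control libraries were compared here, with the 6 white control libraries for reference. The authors deposited FPKM per gene in 2 tables, 1 for replicates 1 and 2 and 1 for replicate 3. The submitters' processing notes name FastQC 0.11.9, HISAT2 2.2.0, HTSeq 0.11 and build mm9, and a strand setting is not given in the sources used here. All 37310 identifiers and gene lengths equalled those of the GENCODE annotation of that build, and multiplying by length gave whole reads for all values (tolerance 0.01), from which the depth was taken. It ranged from 16392420 to 52893848 reads over the 24 libraries, and counting error therefore matters for low genes and for replicate 3. Replicates 1 and 2 differed by more than sampling noise (median chi-square of 2.18 and 2.20 on D4 and D8, beside 0.455 for noise alone).

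A gene was tested where FPKM was at least 1 in at least 2 of the 16 libraries of replicates 1 and 2. limma 3.58.1 in R 4.3.3 was fitted to log2(FPKM + 1) of these 16 libraries, with 1 mean for each of the 8 groups, a trended prior and a two-sided test with Benjamini-Hochberg adjustment over all 14095 genes (threshold 0.05, 8 residual degrees of freedom, total 11.4). All adjusted p-values come from this fit unless another is named. On simulated data for this comparison, 55 of 57 genes changed 1.5-fold and 72 of 72 changed 2-fold were called, and 8 of 13895 unchanged genes. The simulation changed few genes, all well expressed, with a replicate spread that was set and not taken from these libraries. It checks that the fit runs as intended, and its rates do not carry over to the data, where most genes were called. Replicates with the same number correlated in their deviations from the group means over both tables (r = 0.749, 0.753 and 0.920), which includes the difference between the tables, and the difference of replicates 1 and 2 on D4 and on D8 had r = 0.01. Replicates 1 and 2 thus showed no sign of pairing by number, and a replicate block was fitted as an alternative only.

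Named genes were the 10 with the largest called change in each direction (mean FPKM of at least 5 in the higher group and the same direction in 3 replicates), hallmark genes of each list, the 2 members of each list with the largest change in each direction under the same conditions, and the 5 genes with the largest called brown and white difference in each direction. The last needed a mean FPKM of at least 5 in a group and the same sign in 3 replicates. Genes without a regular symbol were skipped in the rankings. The lists and these rules were written with earlier results of these data known. Some genes that meet these rules are not reported here. Overlapping genes could not be told apart by strand. Alternatives were another pseudocount (0.1), no filter or a filter at 5 FPKM, median-ratio scaling, quantile normalisation, the brown controls alone, all 24 libraries with a table term, voom on the recovered reads, a replicate block, and leaving out each library.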

Additional observations from a re-analysis of the deposited data

Results flagged for a closer look

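For 31 named genes the change from D4 to D8 differed between brown and white control cells by the interaction contrast. In each, the depots were called in opposite directions or the gene was named for its large difference. Differences are brown minus white on the log2(FPKM + 1) scale, from limma. In 25 of them brown and white cells were called in opposite directions. The change was higher in brown cells for 20. Of the muscle-type and brown fat genes, Mb differed by 4.37, Cox8b by 3.74, Myh1 by 2.10, Acta1 by 2.03, Ppargc1b by 1.57 and Ebf2 by 0.85. Of the immediate early, clock and YAP genes, Egr1 differed by 3.65, Fos by 3.59, Cyr61 by 2.89 and Per1 by 0.98. Of the metabolic genes, O3far1 differed by 3.43, Hk2 by 1.41, Ldhb by 0.97, Idh3a by 0.79, Acadl by 0.69, Mdh2 by 0.67 and Atp5a1 by 0.63. Trib3 differed by 1.78, Cdkn1c by 1.34 and Hmox1 by 0.85. The change was lower in brown cells for 11. Of the matrix and progenitor genes, Mmp3 differed by -4.19, Prg4 by -3.91, Pdgfra by -0.87 and Col6a1 by -0.55. Of the macrophage markers, C1qa differed by -1.93 and Lyz2 by -1.17. Of the others, Reg1 differed by -4.51, Prl2c2 by -3.64, Aox3 by -3.48, Ddit4 by -1.87 and Nqo1 by -1.05.

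The opposite calls of Cdkn1c, Ebf2, Mdh2, C1qa and Reg1 rest on a brown call that was lost when 1 brown control library was left out (adjusted p up to 0.337 for Cdkn1c, 0.108 for Ebf2, 0.148 for Mdh2, 0.108 for C1qa and 0.117 for Reg1). With all 24 libraries and a table term, the brown calls of Acadl, Atp5a1, C1qa, Cdkn1c, Col6a1, Ebf2, Hmox1, Idh3a, Mdh2, Pdgfra and Per1 were lost. Groups had fewer than 4 libraries, so no library was tested as an outlier of its group.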

How the results depend on the processing

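The count of genes called between D8 and D4 in brown cells (9751) stayed between 7829 and 10494 under the pseudocount of 0.1 (9703), no filter (10494 of 24482 genes), a filter at 5 FPKM (7829 of 10129), median-ratio scaling (9421), quantile normalisation (9524), the brown controls alone (9270) and voom (9680). With all 24 libraries and a table term it fell to 5606 (2541 higher and 3065 lower), and the brown and white difference from 5631 to 1164 genes (566 and 598). Without the white D8 EGCG library of replicate 3, in which 5 genes took 61.0% of the reads, that fit gave 10217 and 6412. The brown calls lost with all 24 libraries numbered 39 of the named genes. Those with values in the text included Abhd5, Acadl, Adipoq, Atp2a2, Atp5a1, Atpif1, C1qa, Cdkn1c, Cebpb, Col6a1, Ebf2, Elovl1, Emr1, Esrra, Hmox1, Idh3a, Mdh2, Pdgfra, Per1 and Prkar2b, and those given by name alone included Asns, Got2, Ncam1, Oat and Pdgfrb. Leaving out each library gave 8737 to 8898 brown calls and 4548 to 5764 brown and white differences. The difference otherwise held 4642 to 5602 genes under pseudocount 0.1 (5321), no filter (5602), 5 FPKM (4642), median-ratio scaling (5471), quantile normalisation (5405) and voom (5255). Changes of at least 2-fold numbered 2947 with the smaller pseudocount and 3032 with voom, beside 1978, and differences of at least 2-fold 1308 and 1293, beside 832.

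With the replicate block, 9693 genes were called in brown cells and 5487 for the brown and white difference, and with the block fitted to all 3 replicates the counts were 9613 and 5088. Of the 260 named genes called, 1 lost its call with the block and 4 with the block over all 3 replicates, among them Ebf2 and Pdgfrb.

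Of 289 named genes tested, none reversed its call. Under median-ratio scaling 8 lost a call and 9 gained one, and under quantile normalisation the counts were 5 and 2. When 1 brown library was left out, 21 lost their call in at least 1 case. Of 44 list medians 7 changed sign under some alternative. Besides those given in the report, matrix genes ranged from -0.06 (quantile normalisation) to 0.13 (median-ratio scaling), macrophage markers were at 0.03 under median-ratio scaling, and mesothelial markers at 0 without D8 replicate 1. Median-ratio scaling moved the median of all genes from -0.10 to 0.04, so the direction of smaller changes depends on the scaling. Depth limits low genes, and 2 libraries a day limit the p-values.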
